A study of Rattus norvegicus with 13 samples.

Results

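Elongation factors carry the ribosome through each cycle of protein synthesis, and 9 of their genes were followed here in the thyroid of young rats, with the muscle and neuron factor Eef1a2 at the centre. The genes were picked by name, and every array probe that bore their names was kept, which gave 14 probes among the 45598 probes and 9 of the 36174 gene names of the array. Eef1a2 was included because its lower level in the KI-treated group was already known from these arrays, so that its difference between the groups is given below as a description without a test.

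In the cytosol, eEF1A brings aminoacyl-tRNA to the ribosome while bound to GTP, and the eEF1B subunits encoded by Eef1b2, Eef1d and Eef1g recharge it with a fresh nucleotide. Mammals have a pair of eEF1A genes: Eef1a1 is expressed in most tissues, and Eef1a2 takes its place after birth in skeletal muscle, heart and neurons. eEF2 then moves the ribosome along the messenger, and the kinase encoded by Eef2k inhibits eEF2 by phosphorylation. Tufm and Tsfm encode the mitochondrial counterparts, the tRNA carrier and its exchange factor. Skeletal muscle lies against the thyroid in the neck, and transcripts of muscle are measured in dissected glands when some of it is carried along.

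The animals were male Wistar rats whose mothers had been given potassium iodide (KI-treated group, n = 6) or saline (control group, n = 7) by daily gavage in mid gestation, and the offspring themselves were not dosed. Their thyroids were collected about a month after weaning, and the RNA of each gland was hybridised to 1 one-colour Agilent array. The litters are not given in the sources used here, so each animal counted as an independent sample, even where 2 of them may have come from the same dam. Levels are log2 intensities from which the array's 75th percentile was subtracted, and a change is the mean of the KI-treated group minus that of the control group. Levels of different probes cannot be set against each other, and only their changes and spreads are compared. The follicular cell gene Tg, which encodes the hormone precursor thyroglobulin, was well above background on all 13 arrays.

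The probes are shown because the paralogs must be told apart by them. The 60-base Eef1a2 probe lies at chr3:170295384-170295443 on the minus strand of the rn4 build and starts at base 1897 of its RefSeq transcript. Its longest run of identical bases with any Eef1a1 probe was 8. Only probes were compared, not whole transcripts, so whether the Eef1a2 probe also binds Eef1a1 RNA was not tested. The Eef1a1 probes lie on the minus strand of chromosome 8, at chr8:83464146-83464205, chr8:83463927-83463986 and chr8:83463777-83463836, and start at bases 1226, 1343 and 1493 of the transcript. The first and the last of the 3 Eef1g probes, on the plus strand at chr1:211650837-211650989 and chr1:211651440-211651499, start at bases 1006 and 1276. The first spans 153 genomic bases and therefore crosses an intron. The exon and UTR annotation of this build was not used here. The first 30 bases of each probe, 5′ to 3′, are:
Eef1a2: tcgccatcaaagtccagtggaaattcttca
Eef1a1, first probe: taagaagctggaagatggccccaaattctt
Eef1a1, middle probe: ttttgctgtttgtgacatgaggcagacagt
Eef1a1, last probe: cttaatcagtggtggaagaacggtctcaaa
Eef1g, first probe: ccttcatgagttgtaacctcatcactggaa
Eef1g, last probe: acgttggcaaagccgtcaatcaaggcaaga

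A pair of control arrays stood apart, and the elongation factors show how. For 1653 other transcripts with probes at least 200 bases apart, the last probe was compared with the first, and the median difference of each array, relative to the mean of all arrays, is called here the 3′ index. It was 0.56 on the log2 scale in control 4 and 0.37 in control 6, 0.09 in control 7, and between -0.15 and -0.06 in the other 10 animals. The Eef1g probes followed it. With the median of the animals set to 0, the difference between the last and the first Eef1g probe was 1.63 in control 4, 1.24 in control 6 and 0.34 in control 7, and between -0.13 and 0.22 in the others. The same difference for Eef1a1 was 0.70 in control 4, 0.38 in control 6 and between -0.38 and 0.23 in the others. Control 4 and control 6 also had the lowest 75th percentiles before scaling, 8.18 and 7.92 on the log2 scale against 8.48 to 9.10 on the other arrays. No array was saturated, and 34840 to 41050 of the 58717 gene spots were well above background. Both arrays were scanned in the same session, with KI 2 and KI 3. The changes of the elongation factors are therefore given with and without these animals, a comparison chosen after the data were seen.

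**Figure D1:**
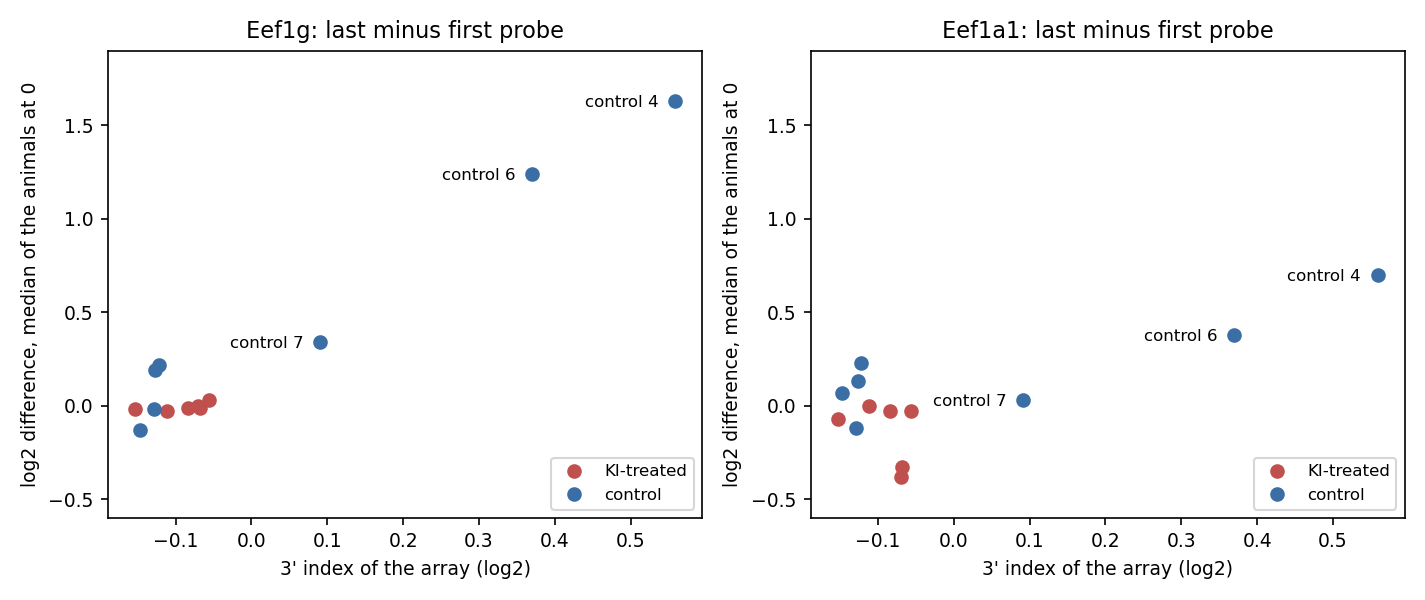
Log2 difference between the last and the first probe of Eef1g (left) and Eef1a1 (right), with the median of the animals set to 0, against the 3′ index of the array, 1 point per animal. For Eef1g, control 4 lies at 1.63 and control 6 at 1.24, while all 6 KI-treated animals lie within 0.03 of 0.

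Eef1a2, chosen for its difference between the groups, had a lower mean in the KI-treated group. Its level in the KI-treated animals 1 to 6 was 0.91, 1.07, 0.80, 1.11, 0.99 and 1.34. In the control animals 1 to 7 it was 1.20, 1.55, 1.28, 2.00, 1.66, 1.88 and 1.70. Of the KI-treated animals, 5 lay below the lowest control, and the ranges overlapped through KI 6, control 1 and control 3. Among all 25717 tested probes, the groups did not overlap for 151 (0.587%). Eef1a2 is not among these, and the share of probes with 5 KI-treated animals below the lowest control was not counted. The group means were 1.04 ± 0.18 (SD, n = 6) and 1.61 ± 0.29 (SD, n = 7). The change was -0.57 on the log2 scale (standard error 0.14), or 0.672 times the control level. This standard error does not allow for the choice of Eef1a2 by the same difference. Because bulk RNA was measured, fewer cells that express Eef1a2 and less of its RNA per cell cannot be told apart.

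The 2 highest Eef1a2 values belonged to control 4 and control 6. Without them the control mean was 1.48 ± 0.23 (SD, n = 5) and the change was -0.44 (standard error 0.13), and with all animals and the 3′ index as a covariate it was -0.44 as well (standard error 0.12). Eef1a2 was lower in the KI-treated animals on each of the 5 slides that held both groups, by -1.08 to -0.21 on the log2 scale. Each of these slides held 1 or 2 animals of a group. The differences of -0.93 and -1.08 each set 1 KI-treated animal against control 4 or control 6. By scan session the Eef1a2 change was -1.01 in the first session, which held control 4 and control 6, and -0.29 in the second. It was -0.44 in the third, which held 1 KI-treated animal. All of these are parts of the difference by which Eef1a2 was chosen. The part of RNA integrity in these differences was not tested. The probe was printed 10 times on each array, and the SD of those spots (median 0.05, at most 0.14) was small beside the SD of 0.25 between animals of a group.

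**Figure D2:**
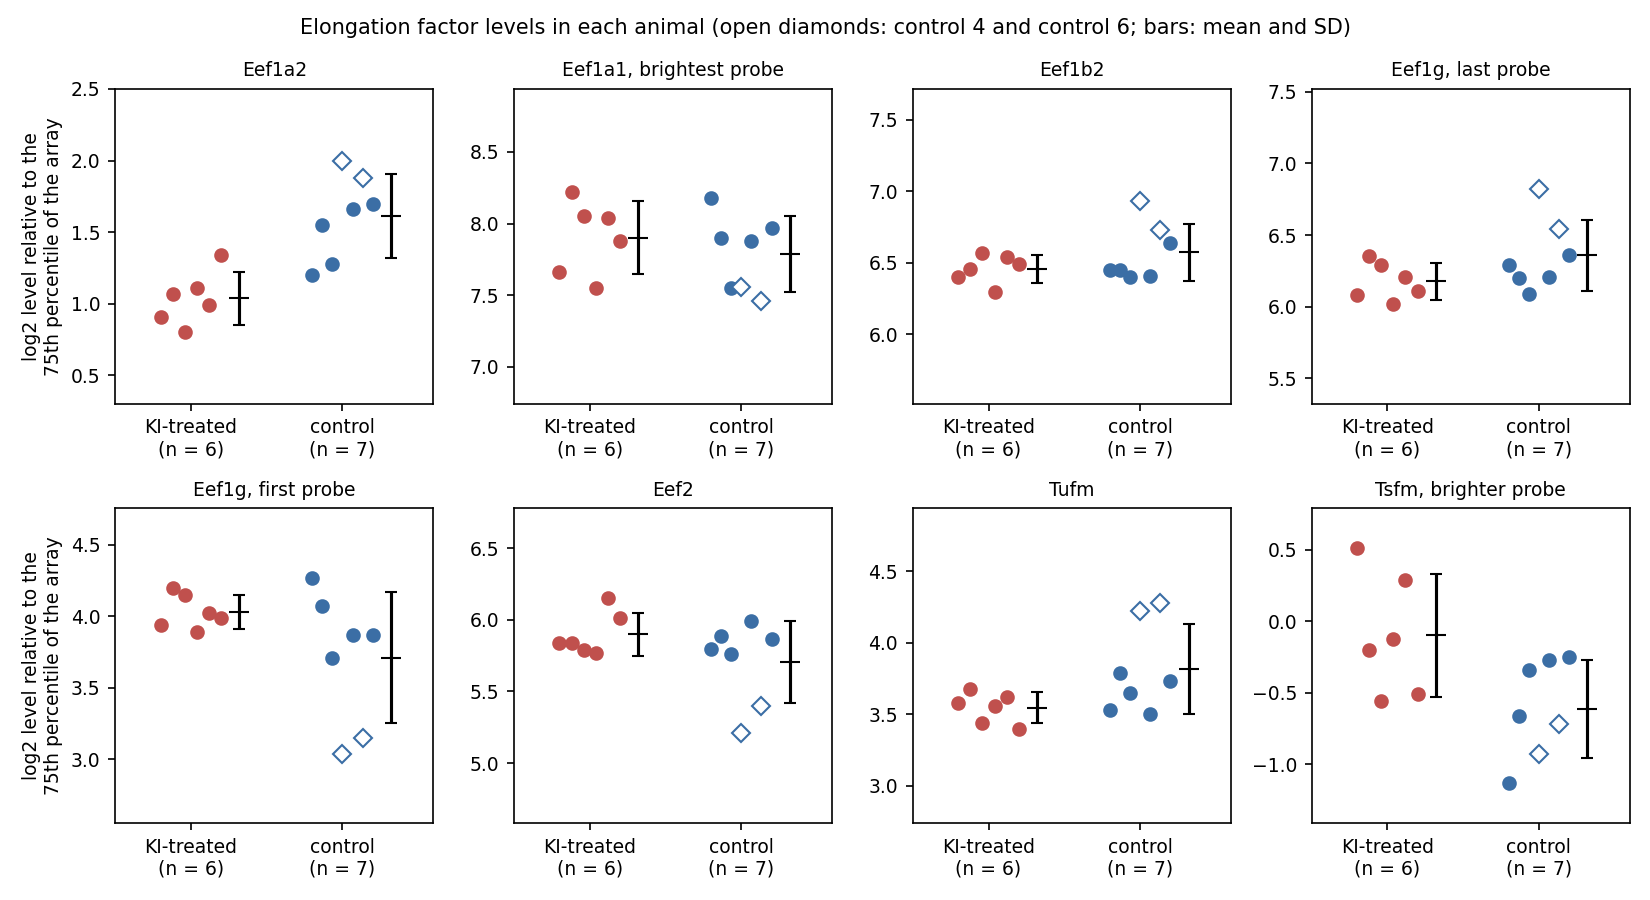
Log2 level of 8 elongation factor probes in each animal, with the array's 75th percentile at 0; every panel spans the same 2.2 log2 units, filled circles are animals, open diamonds are control 4 and control 6, and bars give mean and SD. The diamonds are highest for Eef1a2, Eef1b2, the last Eef1g probe and Tufm and lowest for Eef2 and the first Eef1g probe.

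None of the other members passed the threshold. Of the 13 other probes, all well above background on every array, 0 had an adjusted p under 0.05 in limma, as for the whole array (0.0% of 25717 probes), and 1 had an unadjusted p under 0.05, where the whole array had 12.7%. Their changes lay between -0.27 and 0.52. Without control 4 and control 6 the changes of the 11 probes other than those of Tsfm lay between -0.13 and 0.09.

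Eef1a1, the general paralog, did not pass at any of its probes, and the probes differed in sign. The brightest probe ranged from 7.55 to 8.22 (median 7.96) in the KI-treated group and from 7.46 to 8.18 (median 7.88) in the control group, so that the groups spanned nearly the same range. Its change was 0.11 (standard error 0.15, adjusted p = 0.689 in limma) and 0.00 without control 4 and control 6. For the probe nearest the start of the transcript the estimate was 0.25 (standard error 0.18, limma adjusted p = 0.512) and for the last it was -0.10 (standard error 0.13, adjusted p = 0.692 in limma). With that pair of controls left out the values were 0.08 and -0.13. The intervals of the 3 probes with all animals together ran from -0.37 to 0.64.

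None of the eEF1B subunits passed the test. Eef1b2, the exchange subunit, ranged from 6.30 to 6.57 in the KI-treated group and from 6.40 to 6.93 in the control group, with control 4 highest and control 6 next. Its change of -0.11 (standard error 0.11, limma adjusted p = 0.601) became -0.01 without those controls. Eef1d, a second exchange subunit, was 5.67 to 5.95 against 5.68 to 6.35, a change of -0.12 (standard error 0.12, limma adjusted p = 0.597) that became -0.01 without them. With quantile normalization the values were 0.04 for Eef1b2 and 0.02 for Eef1d, so no direction can be given for either.

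Eef1g, the scaffold subunit, gave opposite signs along its transcript. The first probe was 3.89 to 4.20 in the KI-treated group, and in the control group 3.04 in control 4, 3.15 in control 6 and 3.71 to 4.27 in the others. The last probe was 6.02 to 6.35 in the KI-treated group, and in the control group 6.82 in control 4, 6.54 in control 6 and 6.09 to 6.36 in the others. The same 2 animals were thus the lowest at one end of the measured stretch and the highest at the other. The changes were 0.32 for the first probe (standard error 0.19, adjusted p = 0.44 in limma), 0.26 for the middle probe (standard error 0.15, adjusted p = 0.442 in limma) and -0.18 for the last (standard error 0.13, adjusted p = 0.493 in limma). Without control 4 and control 6 they were 0.07, 0.09 and -0.05.

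The translocation factor Eef2 was 5.77 to 6.15 (median 5.84) in the KI-treated group and 5.21 to 5.99 (median 5.80) in the control group, where control 4 and control 6 were the lowest of all animals. Its change was 0.20 (standard error 0.14, adjusted p = 0.497 in limma) and 0.04 without them. The kinase gene Eef2k was 0.23 to 0.79 in the KI-treated group and -0.09 to 0.96 in the control group, a change of -0.01 (standard error 0.17, interval -0.37 to 0.35, limma adjusted p = 0.967) that became -0.11 without those controls. Its sign differed between scalings.

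The mitochondrial pair differed in sign, and neither passed. Tufm had a median of 3.57 and a maximum of 3.68 in the KI-treated group, and in the control group 4.22 in control 4, 4.28 in control 6 and 3.50 to 3.79 in the others. Its change of -0.27 (standard error 0.14, limma adjusted p = 0.418) became -0.09 without those animals. Tsfm, its exchange factor, was 0.51, -0.20, -0.56, -0.12, 0.29 and -0.51 in KI-treated animals 1 to 6 at its brighter probe. In the control animals 1 to 7 it was -1.13, -0.66, -0.34, -0.93, -0.27, -0.72 and -0.25. KI 1 and KI 5 were the highest animals at both Tsfm probes, and the groups overlapped. The changes were 0.52 at the brighter probe (standard error 0.20, unadjusted p = 0.0231, adjusted p = 0.369 in limma) and 0.35 at the other (standard error 0.22, adjusted p = 0.464 in limma). Without control 4 and control 6 they were 0.43 and 0.44, and without KI 1 they were 0.39 and 0.18. The build used by the array does not place the Tsfm probes on a chromosome.

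**Figure D3:**
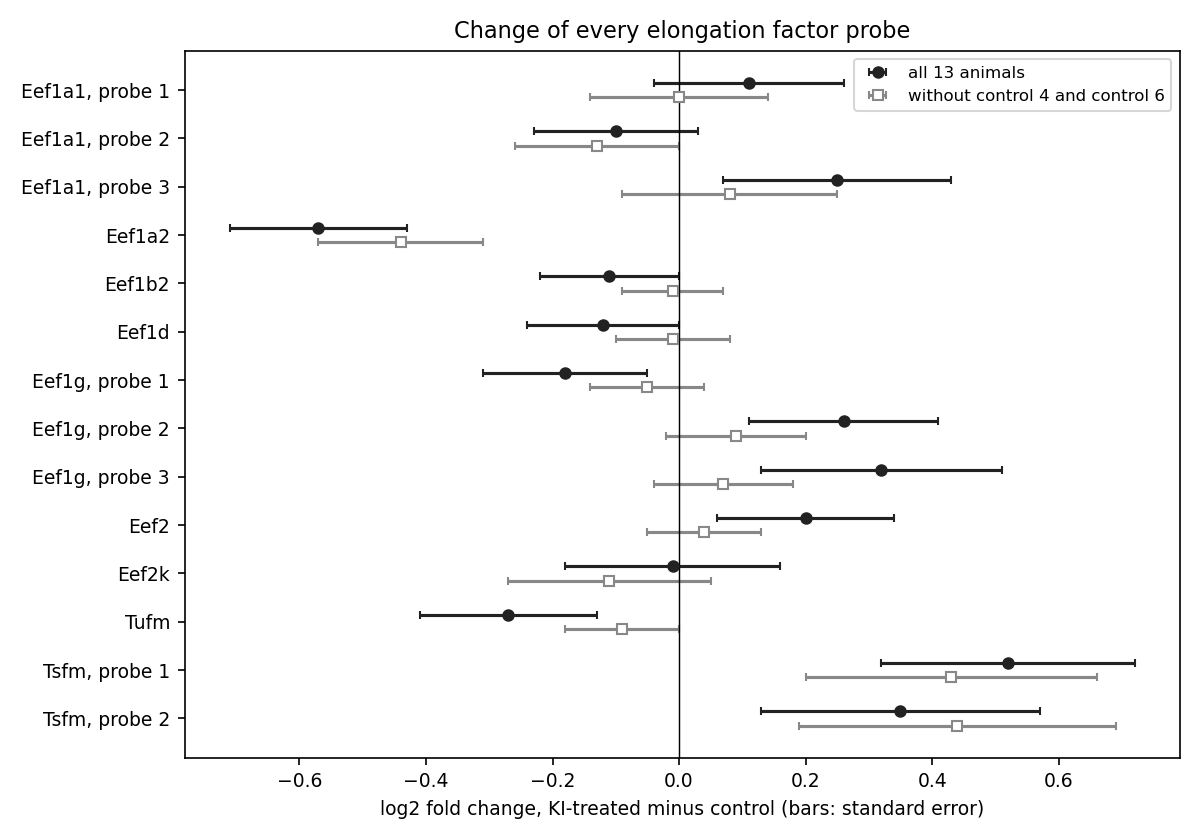
Log2 fold change (KI-treated minus control) of the 14 elongation factor probes with standard errors, from all 13 animals (black circles) and without control 4 and control 6 (open squares); probes of a gene are numbered from the brightest. The estimates of 11 probes of the other factors lie between -0.13 and 0.09 in the second fit, and the Tsfm probes at 0.43 and 0.44. Eef1a2, chosen for its difference between the groups, goes from -0.57 to -0.44.

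Among animals of the same group, the relations of Eef1a2 to the other factors depended on control 4 and control 6. After subtraction of the group means over 13 animals, its Pearson r was 0.72 with Eef1d, 0.61 with Eef1b2, 0.61 with Tufm and -0.71 with the first Eef1g probe. Without the pair the values were 0.43, 0.12, 0.07 and -0.33. Eef2 went the other way, from -0.41 with all animals to 0.48 without the pair. With the brightest probe of its paralog Eef1a1, r was -0.38 and without the pair -0.06. These values are descriptions, since the probes share an array and its scaling. The SD within groups of Eef1a2, 0.251, was below the median of 0.309 for all tested probes, and that of Eef1b2, 0.163, was the smallest among the members.

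Of 26 further elongation genes, some for factors themselves and others that modify or assist elongation, 24 were measured and all 24 were tested. None passed after adjustment, and at an unadjusted p under 0.05 there were 2 higher genes and 0 lower ones, where 5.71% of all tested probes were higher and 7.01% lower. Their median change was -0.01, against -0.08 for all tested probes. The 4 with the smallest p were Mtor, the growth kinase upstream of Eef2k, at 0.71 (adjusted p = 0.37 in limma), Dph5, which acts in making the diphthamide residue of eEF2, at 1.25 (adjusted p = 0.385 in limma), Dhps, which modifies eIF5A, at 0.41 (adjusted p = 0.401 in limma), and the eEF1A methyltransferase gene Eef1akmt1, listed as N6amt2, at 0.62 (adjusted p = 0.41 in limma). When control 4 and control 6 were left out these values were 0.48, 0.39, 0.17 and 0.15, and the median of the 24 genes was 0.07. The Mtor medians were closer than its means, at -1.78 in the KI-treated group (maximum -0.32) and -1.99 in the control group (minimum -3.42). Dph5 was well above background on 11 arrays, and its level went down to -5.57 in the control group.

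Skeletal muscle transcripts varied far more between the glands than Eef1a2 did. Ckm, the muscle creatine kinase, was -1.20, 2.75, 2.06, -1.87, 1.25 and 1.05 in KI-treated animals 1 to 6. In control animals 1 to 7 it was 1.75, 2.11, 1.30, 1.14, 4.28, 2.02 and 2.11. Control 5 was the highest, KI 4 and KI 1 were the lowest, and the groups overlapped. Over all animals Ckm spanned 6.15 log2 units and Eef1a2 1.20. Acta1, skeletal alpha-actin, lay between -1.61 and -0.71 in the KI-treated group and between -1.32 and 2.83 in the control group, where control 5 stood far above the rest.

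Of 33 skeletal muscle genes, 32 were on the array and 29 were tested, and Myh2, Actn2 and Mybpc1 were too dim. None passed after adjustment, 26 of the 29 were lower in the KI-treated group, and 4 of these had an unadjusted p under 0.05. Of all tested probes, 60.7% were lower, and 7.01% were lower at an unadjusted p under 0.05. The 4 muscle genes were Pvalb (-2.20, adjusted p = 0.363 in limma), Actn3 (-1.73, adjusted p = 0.366 in limma), Ampd1 (-1.34, adjusted p = 0.376 in limma) and Cacna1s (-1.33, adjusted p = 0.391 in limma). They encode the calcium buffer parvalbumin, fast-fibre actinin, AMP deaminase and the muscle calcium channel. For Ckm the estimate was -1.43 (standard error 0.71, limma adjusted p = 0.405) and for Acta1 it was -0.77 (standard error 0.53, adjusted p = 0.486 in limma). Without control 4 and control 6 the values were -2.17 for Pvalb, -1.76 for Actn3, -1.47 for Ampd1, -1.42 for Cacna1s, -1.64 for Ckm and -1.03 for Acta1. The median of the list was -0.77, and -1.03 without control 4 and control 6. It was -0.44 without control 5, -0.43 without KI 4 and -1.19 without KI 2, and between -0.75 and -0.56 with quantile normalization, normexp or the deposited log2 values. The mean level of the 29 genes ranged from -1.97 to 1.09 (median -0.44) in the KI-treated group and from -0.41 to 2.38 (median 0.33) in the control group.

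Whether Eef1a2 follows muscle between animals was tested within the groups, because the group difference had been used to choose it. After subtraction of the group means, Eef1a2 showed no relation to Ckm that the test could detect over 13 animals (Pearson r = 0.00, permutation p = 0.992; Spearman rho = -0.02, permutation p = 0.962). With Acta1 the values were r = -0.03 (permutation p = 0.923) and rho = -0.27 (permutation p = 0.376). With the mean of the muscle list they were r = -0.04 (permutation p = 0.904) and rho = -0.13 (permutation p = 0.689). The 95% intervals of r were -0.57 to 0.58, -0.60 to 0.55 and -0.60 to 0.55, so moderate relations in either direction could not be seen with this number of animals. All tests were two-sided within groups. In the family of 15 relations the adjusted permutation p of each r was 0.992, and that of each rho was 0.98.

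Single animals can be set side by side. Of the KI-treated group, KI 2 and KI 3 had the highest muscle list levels, 1.09 and 0.65, and Eef1a2 levels of 1.07 and 0.80. KI 4 had the lowest, -1.97, with Eef1a2 at 1.11. Control 5, the most muscle-rich gland at 2.38, was in the middle of the controls in Eef1a2 at 1.66. The muscle list was higher by 0.91 in the KI-treated animals of the first scan session, where Eef1a2 was lower. The only controls of that session were control 4 and control 6. The muscle list difference was -0.94 in the second session and -2.86 in the third, where Eef1a2 was lower too. The third session held 1 KI-treated animal, KI 4, and 3 controls, among them control 5. The muscle list and Eef1a2 were both lower on 3 of the 5 slides that held both groups. On the remaining slides the muscle list was higher in the KI-treated animal, by 1.5 against control 4 and by 0.32 against control 6. Each of these was the only control of its slide. Within the KI-treated group r was -0.07 with Ckm, 0.07 with Acta1 and -0.27 with the list (n = 6), and within the control group 0.07, -0.05 and 0.10 (n = 7).

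Leaving out the 2 animals farthest from the median of each muscle measure gave r of -0.04 with Ckm, -0.31 with Acta1 and -0.06 with the list. Without control 4 and control 6 the values were 0.19, 0.24 and 0.19 (permutation p = 0.577, 0.723 and 0.583). Without subtraction of group means r was 0.37, 0.26 and 0.29. With the slide means removed as well as the group means the values were -0.07, 0.05 and -0.15, and with the scan session means removed -0.11, -0.01 and -0.15. No session held 6 animals, so none was tested alone. With the muscle list mean as a covariate the change of Eef1a2 between the groups was -0.58, against -0.57 without it. Both values are of the difference by which Eef1a2 was chosen, and the covariate fit uses the same within-group relation as r. The part of muscle content in that difference was not tested.

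**Figure D4:**
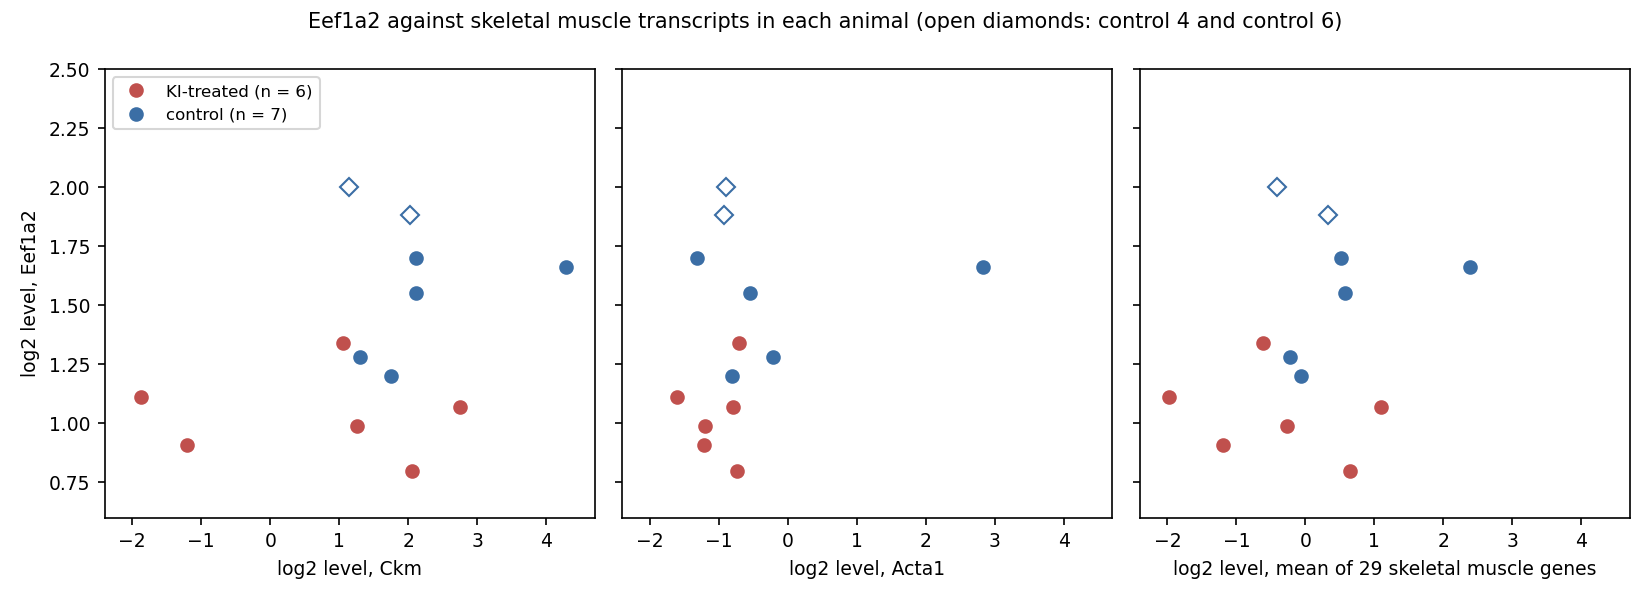
Log2 level of Eef1a2 (vertical axis) against those of Ckm, Acta1 and the mean of 29 skeletal muscle genes (horizontal axes) in each animal; filled circles are animals and open diamonds are control 4 and control 6. The muscle list spans 4.35 log2 units and Eef1a2 spans 1.20, and the within-group r is 0.00 for Ckm, -0.03 for Acta1 and -0.04 for the list.

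The general factors were set against the muscle list in the same family. Eef1a1 had r = 0.60 (permutation p = 0.0375, adjusted p = 0.478 in the permutation test) and rho = 0.59 (permutation p = 0.0487, adjusted p = 0.263), which did not hold after adjustment. Without the 2 animals farthest from the median r was 0.58, and without control 1 it was 0.79 (adjusted p = 0.04 in the permutation test). It was 0.96 within the KI-treated group and 0.26 within the control group. Eef1g at its last probe had r = 0.98 within the KI-treated group and -0.37 within the control group, and 0.09 over both. Control 4 and control 6 were the highest animals at this probe. Without them r over both groups was 0.64 (permutation p = 0.053, adjusted p = 0.265 in the permutation test). The difference between the groups in these relations was not tested. The other 6 factors had r between -0.25 and 0.39, and none of the 15 relations passed after adjustment with all animals and group means alone subtracted.

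Subtracting batch means changed some of these calls. Eef2 and the muscle list then had r = 0.95 with slide means and 0.93 with scan session means removed, against 0.39 without (adjusted permutation p = 0.0003 for both). For Eef1a1 the values were 0.82 (adjusted permutation p = 0.0033) and 0.70 (adjusted permutation p = 0.0479). Those permutations exchanged animals within groups across batches and do not allow for the degrees of freedom that the batch means take, so their p-values are too small. Exchanging animals only within group and session, a test added after the data were seen, allows 288 orders. It gave an exact p of 0.00347 for Eef2, the smallest it can give (adjusted 0.0521), and an exact p of 0.198 for Eef1a1. The slides allow 4 orders and no p below 0.25.

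Eef1a2 is also expressed in neurons and was set against lists for other cell types of the gland. With 12 neuron genes r was -0.01 (permutation p = 0.976; rho = 0.13, permutation p = 0.705). It was 0.48 without the 2 farthest animals, control 4 and KI 2 (permutation p = 0.155), and 0.31 without control 4 and control 6 (permutation p = 0.361). With slide or session means removed it was 0.03 and 0.01. The neuron list mean was -1.72 to -1.21 in the KI-treated group and -2.01 to -1.36 in the control group. With 8 Schwann cell genes r was -0.57 (permutation p = 0.0637, adjusted p = 0.478; rho = -0.60, permutation p = 0.0526) and -0.17 without the 2 farthest animals. Without control 4 and control 6 it was -0.65 (permutation p = 0.0425, adjusted p = 0.265). With session means removed it was -0.64, and exchange within group and session gave an exact p of 0.0243 (adjusted 0.122). With 10 genes of the calcitonin-producing C cells r was 0.34 (permutation p = 0.248; rho = 0.48, permutation p = 0.0982), and 0.73 without control 4 and control 6 (permutation p = 0.0181, adjusted p = 0.265). The C cell list mean was 1.70 to 2.47 in the KI-treated group and 1.93 to 2.63 in the control group. With 11 follicular cell genes r was 0.23 (permutation p = 0.458; rho = 0.20, permutation p = 0.535). None of the 4 passed after adjustment, whether or not that pair of controls was included. With slide or session means removed, the C cell list reached r of 0.76 and 0.77 (adjusted permutation p = 0.0446 and 0.0312, with the same limit as for Eef2), and exchange within group and session gave an exact p of 0.0243 (adjusted 0.122).

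The genes whose levels were most like those of Eef1a2 were sought among 17007 genes well above background on all 13 arrays, after subtraction of group means. The 10 with the highest Pearson r were Reep2, which shapes the endoplasmic reticulum (0.95), the ephrin receptor gene Epha8 (0.93), the RNA-methylation reader Ythdf1 (0.93), the cyclin H gene Ccnh (0.93), Gtf3c4 of the RNA polymerase III machinery (0.93), the ubiquitin-conjugating enzyme gene Ube2j1 (0.92), Taf1a of the RNA polymerase I machinery (0.92), the glucosidase gene listed as Gcs1 (0.92), a transcript with no gene symbol (0.92) and Pdcd2l (0.92). The lowest were Inpp5d, a lipid phosphatase of blood cells (-0.94), and Vim, which encodes vimentin (-0.91), followed by 3 transcripts with no gene symbol at -0.88. Without control 4 and control 6 the 10 highest had r of 0.85 to 0.92 and the 5 lowest -0.88 to -0.78. In all, 401 genes had r over 0.8 and 46 under -0.8. These values describe 13 animals that share arrays and scaling, and no p is given.

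In that ranking no gene of the muscle list and none of the other members came near the top. Ckm was at position 10771 and Acta1 at 11089. The highest member was Eef1d at 1430 (r = 0.72), and Eef1a1 was at 13992. Of the 22 muscle genes ranked, the highest was Tnnt1, a slow-fibre troponin gene, at 4264 (r = 0.56), and the lowest was Mybpc2 at 16229 (r = -0.64).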

How the data were processed

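The RNA of 13 thyroids (6 KI-treated group, 7 control group) was labelled with Cy-3 and hybridised to one-colour Agilent arrays of 62976 features. The deposited scanner files, 1 for each array, hold background-subtracted spot intensities from Feature Extraction (version 10.7.3.1, per the file headers), and the arrays were not scaled to each other. In the log2 table that the authors also deposited, values rank like the median signals of the spots. How it was normalized is not given in the sources used here, and it was used only as an alternative. Dim spots are the most sensitive to the background that was subtracted.

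Log2 of the processed signal was taken, outlier-flagged spots were left out, the spots of each probe were averaged, and the 75th percentile over the 45598 probes of the array was subtracted. Probes flagged well above background on 6 or more arrays (25717) entered the fit with lmFit and eBayes of limma 3.58.1 under R 4.3.3, at a threshold of 0.05 after Benjamini-Hochberg adjustment. Of these, 67 lacked a value on some array. With 200 of 25650 simulated probes changed, the test found 0 of them when the log2 change was 0.5, 145 when it was 1 and 199 when it was 2. The number of arrays limits the precision. Correlations were tested with 100000 permutations within groups (numpy 2.4.6, Python 3.11.15), and their intervals come from Fisher's z. For lists and correlations the brightest probe stood for its gene.

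Members and gene lists were chosen with earlier results of these data known. The genes named are the 9 members, Ckm and Acta1, up to 4 genes with the smallest p in the list of further elongation genes and in the muscle list, and the 10 genes most like Eef1a2 and 5 least like it. Tg, Tnnt1, Mybpc2 and the genes too dim to test were named outside this rule. Of the 26 further elongation genes, 2 were matched by older symbols. Alternatives were quantile normalization, normexp (offset 50), the deposited log2 values, other filters, slide, scan session and replicate number as blocks, array weights, the methods' t-test, trended and robust variances, and leaving out each animal. After the data were seen, the 3′ index and the muscle list as covariates, the 75th percentile over all gene spots, a fit without control 4 and control 6, and exact permutations within group and batch were added. Replicate numbers did not pair the animals: same-numbered animals correlated between -0.109 and 0.071.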

Additional observations from a re-analysis of the deposited data

Results flagged for a closer look

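Control 5 stood apart from the other controls in muscle transcripts. Its level was 4.28 for Ckm, where the next control was at 2.11, 2.83 for Acta1, where the next was at -0.22, and 2.38 for the mean of the muscle list, where the next was at 0.57. In each case the gap was over 0.568 of the range of the 7 controls, the 95% critical value of Dixon's test, which chance exceeds in about 1 of 20 groups. Of 48 groups tested, these 3 were past it, and they share 1 animal and 1 tissue. No elongation factor probe was past it in either group.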

How the results depend on the processing

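The Eef1a2 change, by which the gene was chosen, kept its sign in every alternative run on these same arrays. It ran from -0.64 without control 1 to -0.44 without control 4 and control 6. It was -0.51 with quantile normalization, -0.52 with normexp and the 75th percentile, -0.49 with the deposited log2 values and -0.56 with the replicate number as a block, which moved no member past the threshold. Of all probes, 0 passed in limma (3271 at an unadjusted p under 0.05, of which 1469 were higher and 1802 lower), 50 with array weights (2 higher, 48 lower), and 0 to 1 when each animal was left out, with 1 without control 1 and 1 without control 2. The split of the unadjusted calls was 1823 higher and 1432 lower with quantile normalization, 1885 and 1402 with normexp and quantile, 1886 and 1359 with the deposited log2 values, 1166 and 3427 with normexp and the 75th percentile, 1351 and 2663 with no filter, 1717 and 2660 with array weights, 1789 and 1109 with the percentile over all spots and 891 and 1521 without control 4 and control 6. With the percentile over all spots the median of all probes was 0.00 in place of -0.08. The median of the muscle list was -1.25 with array weights.

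Members with changes near 0 turned sign, and the cause was not tested. With quantile normalization, normexp and quantile, and the deposited log2 values, the last Eef1a1 probe had 0.10, 0.11 and 0.09, Eef1b2 0.04, 0.05 and 0.06, Eef1d 0.02, 0.02 and 0.03, and Eef2k 0.01, 0.00 and 0.03. With the 3′ index as a covariate Eef1b2 and Eef1d had 0.00. Eef2k had 0.07 with the percentile over all spots, 0.03 with slide and 0.08 with scan session as a block, and -0.10 to 0.07 when each animal was left out.

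The correlations of Eef1a2 with muscle stayed within -0.31 to 0.37, and none of these passed after adjustment, while Eef1a1 and Eef2 with the muscle list and Eef1a2 with the C cell list did with slide or session means removed, at p-values that are too small. With quantile normalization, normexp and the 75th percentile, normexp and quantile, the deposited log2 values and the percentile over all spots, r was 0.11, 0.03, 0.12, 0.13 and 0.10 for Acta1 and 0.03, 0.03, 0.07, 0.08 and 0.06 for the list. It was -0.07 for Ckm and 0.05 for Acta1 with slide means removed, and -0.11 for Ckm with session means removed. Without subtraction of group means it was 0.26 for Acta1 and 0.29 for the list. It was -0.04 for Ckm without the 2 farthest animals, and 0.24 for Acta1 and 0.19 for the list without control 4 and control 6. Leaving out each animal gave -0.08 to 0.14 for Ckm, -0.31 to 0.08 for Acta1 and -0.15 to 0.12 for the list. A second Eef1a2 probe could not be tried, because the array holds 1.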
